A study of Mus musculus with 8 samples.

Results

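The 10 genes described here encode alarmins and cytokines of the interleukin-1 (IL-1) family, their antagonists and their receptors, together with Hmgb1. They were taken by symbol from a deposited table of 55487 genes: Il1a, Il1b, Il1rn and Il1r1 of the IL-1 branch, Il18, Il18bp and Il18r1 of the IL-18 branch, Il33 and Il1rl1 of the IL-33 branch, and Hmgb1. All 10 were in the table and all 10 had a mean of at least 10 normalized counts, the level required for testing, as did 16352 genes in all. The samples were ileum from mice given irinotecan, a topoisomerase I inhibitor whose dose is limited by injury to the gut, and came from 4 wild-type mice (WT, genotype Gsdme+/+) and 4 mice lacking Gsdme (Gsdme_KO, genotype Gsdme-/-). Gsdme encodes gasdermin E, a protein that forms membrane pores after cleavage by caspases. Every mouse had received irinotecan and no untreated mouse was analysed here, so the values compare genotypes under treatment. The labels give no strain, age, dose, time after dosing or account of how the allele was made. They number the mice from 1 to 4, whereas the columns are headed WT3, WT5, WT7 and WT8 for wild type and KO4, KO5, KO7, KO8 for the mutant, so each column was tied to a genotype only.

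Most IL-1 family cytokines lack the usual secretion signal and leave cells mainly through membrane pores or when cells rupture. IL-1 beta and IL-18 are made as precursors that inflammatory caspases cleave, whereas IL-1 alpha and IL-33 are held ready in cells and act as alarmins once released, as does HMGB1, an abundant nuclear DNA-binding protein. In the gut, IL-18 is made chiefly by epithelial cells, IL-33 by stromal and endothelial cells and in injury by epithelium, and IL-1 beta by myeloid cells. Their release is a protein event after transcription, and RNA levels do not measure it.

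The libraries held 15617407 to 23437343 reads in genes. Gsdme, the targeted gene, had 2169 to 3376 normalized counts in WT and 113 to 634 in Gsdme_KO, with no overlap (two-sided exact permutation p = 0.0286, which is the lowest that 4 against 4 can reach). Several lists of cell type markers set KO4 and KO5 apart. The summed level of 10 B cell and follicle markers was 10097 for KO4 and 5755 for KO5, while WT held 211 to 320 and KO7 and KO8 held 246 to 319. The summed level of 8 neutrophil markers was 2089 for KO4 and 1680 for KO5, with 508 to 1079 elsewhere. Most of that sum in KO5 and WT5 was Mmp9, with 1180 and 942. By the mean log2 level of the neutrophil markers relative to the WT mean, KO4 lay at 3.06 and KO5 at 2.02, with -0.35 to 0.62 elsewhere. The summed level of 10 mature enterocyte markers was 196454 for KO4 and 274310 for KO5, with 343985 to 628730 elsewhere. By the mean log2 level of these enterocyte markers, however, KO5 was not set apart. Relative to the WT mean, KO4 lay at -1.27, WT8 at -0.76 and KO5 at -0.62. The 9 pan-epithelial markers summed to 244769 to 285850 in WT and to 245657 to 281165 in Gsdme_KO. The 10 follicular dendritic and reticular markers summed to 10170 for KO4 and 10095 for KO5, with 4527 to 7694 elsewhere. Fdcsp and Ccl21a were at 0 in all 8 libraries. Much of that sum in KO4 and KO5 was Clu, with 5290 and 5628 there and 1169 to 2059 elsewhere. Of the 7 tested, 3 were highest in KO4, 2 in KO5 and the others, Bst1 and Ltbr, in WT5. Several genes of these lists mark lymphoid follicles, such as those of the Peyer's patches of the ileum, and the highest values of most members fell in KO4 or KO5. Whether the pieces of ileum differed in follicle content was not tested, nor was its part in the members' values, which are given below with and without KO4 and KO5. In bulk tissue, fewer cells of a type and less RNA per cell cannot be told apart.

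None of the 10 genes was called between genotypes (0 of 10, limma adjusted p from 0.849 to 0.957), and in the same fit 0.00612% of tested genes were called. Of the 10, 9 had a higher mean log2 level in Gsdme_KO and 1, Il18, had a lower one. The median log2 fold change over the 10 was 0.69, against 0.00 over all tested genes, of which 50.6% had a positive value. It was 0.12 without KO4, with 6 of 10 positive, and -0.13 without KO4 and KO5, with 4 of the 9 genes still tested positive. At an unadjusted limma p under 0.05 stood 2 of the 10, Il18 and Il1rn, while the share over all genes was 4.38%. By the edgeR test on reads 0 of 10 were called (smallest adjusted p 0.812; 0.00612% of all genes called), and 3 stood at an unadjusted p under 0.05, as did 6.01% of all genes. By DESeq2 0 of 10 were called (smallest adjusted p 0.385; 0.0553% of all genes called), and 4 stood at an unadjusted p under 0.05, as did 6.97% of all genes. The libraries of the genotypes overlapped for all 10 genes, whereas 2.5% of tested genes had no overlap.

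**Figure D1:**
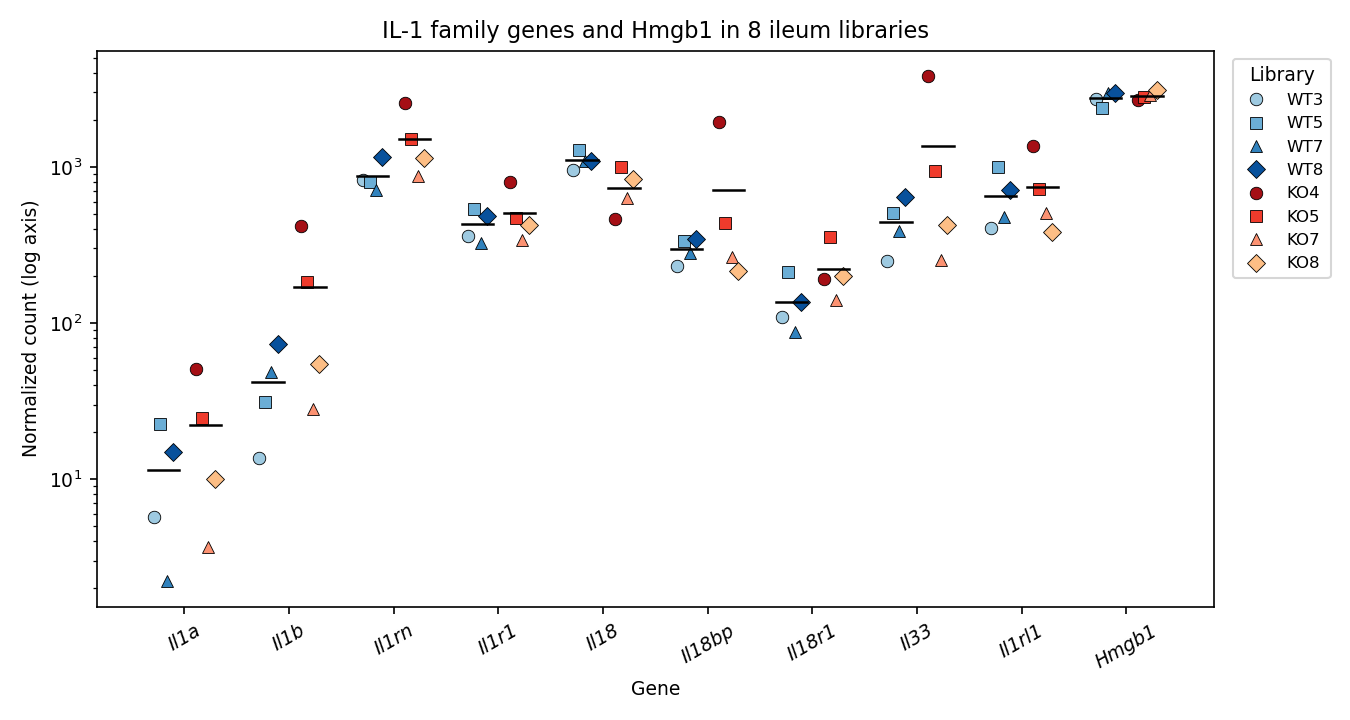
Normalized counts of the 10 genes on a log axis, 1 point per library, with blue points for WT, red to orange points for Gsdme_KO and a black bar at the mean of each genotype (n = 4 each). KO4 is the highest point for 7 of the 10 genes and the lowest for Il18, and Hmgb1 stays between 2401 and 3107 in all 8 libraries.

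The members differed widely in level. Per kilobase of exon, the scale on which genes can be set beside each other, Il18 was highest in WT, at 1075 ± 129 normalized counts per kb, followed by Hmgb1 at 550 ± 54.0 (SD, n = 4). The libraries of these genes did not overlap each other on that scale, nor did those of Hmgb1 and Il1rn. Il1rn (158 ± 35.6), Il33 (155 ± 57.0), Il18bp (98.3 ± 17.6), Il1rl1 (93.8 ± 38.4) and Il1r1 (67.2 ± 15.7) followed, and each overlapped its neighbour in this order. Il18r1 (28.3 ± 11.4) and Il1b (21.9 ± 13.5) overlapped each other, and Il1a was lowest at 5.75 ± 4.67 per kb, overlapping Il1b. The ileum of treated WT mice thus held far more transcript of the epithelial cytokine gene Il18 than of Il1a or Il1b.

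The IL-1 ligands, Il1b and Il1a, were low and varied between mice more than any other member. Il1b (ENSMUSG00000027398, chromosome 2, 129364570 to 129371139, minus strand, GRCm38), which encodes the caspase-1 substrate IL-1 beta, had 13.6, 31.0, 48.7 and 73.7 normalized counts in WT3, WT5, WT7 and WT8, and 416, 184, 28.0 and 54.8 in KO4, KO5, KO7 and KO8. KO4 and KO5 lay above every WT library, while KO7 and KO8 lay inside the WT range. Mean levels of 41.7 ± 25.7 for WT and 171 ± 177 for Gsdme_KO (SD, n = 4) gave the log2 fold change 1.54 (SE 0.84, 95% interval -0.36 to 3.44, limma adjusted p = 0.849). Without KO4 the log2 fold change was 0.88 (SE 0.71), and without KO4 and KO5 it was 0.15 (SE 0.61). The summed level of 10 myeloid markers moved in the same direction, with 14323 for KO4 and 11129 for KO5 where the others held 6782 to 10281. By their mean log2 level relative to the WT mean, KO4 lay at 0.77, but KO5 at 0.34 was close to WT8 at 0.30. The part of myeloid content in the Il1b values was not tested.

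Il1a (ENSMUSG00000027399, chromosome 2, 129299610 to 129309972, minus strand), which encodes the alarmin IL-1 alpha, rested on 2 to 55 reads per library. It had 5.67, 22.6, 2.21 and 14.9 normalized counts in WT3, WT5, WT7 and WT8, and 50.7, 24.8, 3.65 and 10.04 in KO4, KO5, KO7 and KO8. The groups overlapped over most of their range, with KO4 highest and WT7 lowest. The log2 fold change was 0.77 (SE 0.85, 95% interval -1.17 to 2.71, limma adjusted p = 0.875), and 0.21 without KO4. Il1a shares 222 exon bases, 11.2% of its exon length, with the antisense gene Gm14023, and although the labels describe the libraries as strand-specific, no source here tells whether counting used strand, so reads there may belong to either.

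The IL-1 antagonist gene was far more abundant than either ligand. Il1rn (ENSMUSG00000026981, chromosome 2, 24336853 to 24351494, plus strand), whose product occupies the IL-1 receptor without signalling, had 825, 798, 708 and 1158 normalized counts in WT3, WT5, WT7 and WT8, and 2560, 1507, 874 and 1138 in KO4, KO5, KO7 and KO8. KO4 and KO5 exceeded every WT library, and KO7 and KO8 did not. The means were 872 ± 197 and 1520 ± 740 (SD, n = 4), with the log2 fold change at 0.71 (SE 0.31, 95% interval 0.01 to 1.41, limma adjusted p = 0.849). It was 0.42 (SE 0.21) without KO4 and 0.22 (SE 0.20) without KO4 and KO5.

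Il1r1 (ENSMUSG00000026072, chromosome 1, 40225080 to 40317257, plus strand), the signalling receptor for both IL-1 ligands, had 363, 536, 325 and 487 normalized counts in WT3, WT5, WT7 and WT8, and 797, 467, 342 and 425 in KO4, KO5, KO7 and KO8. Only KO4 lay outside the WT range. The log2 fold change of 0.20 (SE 0.27, 95% interval -0.40 to 0.81, limma adjusted p = 0.896) turned to -0.037 without KO4.

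Il18 was the 1 member with a lower mean in Gsdme_KO. Il18 (ENSMUSG00000039217, chromosome 9, 50554827 to 50581840, plus strand) encodes the epithelial cytokine that caspase-1 activates and that drives interferon-gamma production by lymphocytes. It had 961, 1284, 1095 and 1093 normalized counts in WT3, WT5, WT7 and WT8, and 466, 999, 629 and 834 in KO4, KO5, KO7 and KO8. The genotypes overlapped only in that KO5 exceeded WT3, and KO4, KO7 and KO8 lay below every WT library. The means were 1108 ± 133 and 732 ± 233 (SD, n = 4), or 0.64-fold on the log2(normalized count + 1) scale (log2 fold change -0.65, SE 0.22, 95% interval -1.15 to -0.15, limma adjusted p = 0.849). The difference stayed negative in every fit tried, from -0.82 to -0.45. It was -0.45 (SE 0.16) without KO4 and -0.61 (SE 0.15, limma adjusted p = 0.999) without KO4 and KO5. The summed mature enterocyte markers were 628730, 602165, 529575 and 343985 across WT3, WT5, WT7 and WT8, and 196454, 274310, 608419 and 458571 across KO4, KO5, KO7 and KO8. KO4 was lowest for both Il18 and this sum. KO7, next lowest for Il18, had a sum inside the WT range. KO5, next lowest for the sum, had the highest Il18 of the Gsdme_KO libraries. The part of enterocyte content in the Il18 values was not tested.

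The decoy for IL-18 separated 1 library from all others. Il18bp (ENSMUSG00000070427, chromosome 7, 102014885 to 102018690, minus strand) encodes a secreted protein that binds IL-18 and blocks it, and it is known to be induced by interferon-gamma. It had 230, 336, 279 and 344 normalized counts in WT3, WT5, WT7 and WT8, and 1945, 437, 263 and 216 in KO4, KO5, KO7 and KO8. KO4 held 6.54 times the WT mean and KO5 1.47 times, while KO7 and KO8 were at 0.89 and 0.73 times. The log2 fold change was 0.68 (SE 0.61, 95% interval -0.70 to 2.05, limma adjusted p = 0.849), and it was -0.0079 without KO4 and -0.30 without KO4 and KO5. Ifng, which encodes interferon-gamma and whose mean was too low for testing, reached 52.5 in KO4 and lay between 0 and 5.53 elsewhere, in normalized counts. The part of interferon-gamma in the Il18bp values was not tested.

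Il18r1 (ENSMUSG00000026070, chromosome 1, 40465552 to 40500854, plus strand), the ligand-binding chain of the IL-18 receptor on lymphocytes, had 109, 213, 87.4 and 136 normalized counts in WT3, WT5, WT7 and WT8, and 193, 357, 141 and 199 in KO4, KO5, KO7 and KO8. Here KO5 was highest, and the other 3 Gsdme_KO libraries lay below WT5 and above the other WT libraries. The means were 136 ± 54.9 and 223 ± 93.5 (SD, n = 4), so that the log2 fold change was 0.70 (SE 0.34, 95% interval -0.07 to 1.46, limma adjusted p = 0.849), which was 0.74 without KO4, 0.44 without KO5 and 0.38 without KO4 and KO5. The 10 T cell and innate lymphoid markers summed to 1885 for KO4, 1518 for KO5, 674 for KO7 and 689 for KO8, with 564 to 766 in WT, and their part in the Il18r1 values was not tested. Il18rap, the second receptor chain, reached 101 normalized counts in KO4 and 40.6 in KO5, with 21.0 to 27.3 elsewhere.

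Il33 had the widest range in Gsdme_KO of all members. Il33 (ENSMUSG00000024810, chromosome 19, 29925114 to 29960718, plus strand) encodes a chromatin-bound alarmin of stromal, endothelial and epithelial cells. It had 251, 507, 391 and 637 normalized counts in WT3, WT5, WT7 and WT8, and 3822, 944, 253 and 426 in KO4, KO5, KO7 and KO8. KO4 stood at 8.56 times the WT mean and KO5 at 2.12 times, while KO7 (0.57 times) and KO8 (0.96 times) lay inside the WT range. The log2 fold change was 0.90 (SE 0.75, 95% interval -0.79 to 2.60, limma adjusted p = 0.849), which was 0.15 without KO4 and -0.36 without KO4 and KO5. The summed follicular dendritic and reticular markers, given above, were highest in the same 2 libraries, where much of the sum was Clu. The 10 endothelial markers summed to 4383 for KO4 and 3882 for KO5, with 2935 to 3484 elsewhere, and the 10 fibroblast markers to 43913 and 39120, with 25643 to 43918 elsewhere. The part of these cells in the Il33 values was not tested.

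Il1rl1 (ENSMUSG00000026069, chromosome 1, 40429570 to 40465415, plus strand) encodes ST2, the receptor of IL-33 on mast cells, type 2 lymphoid cells and stroma, and a soluble decoy from the same gene. It had 405, 994, 480 and 708 normalized counts in WT3, WT5, WT7 and WT8, and 1365, 718, 509 and 381 in KO4, KO5, KO7 and KO8. WT5 was second only to KO4, and KO8 was lowest. The log2 fold change of 0.12 (SE 0.41, 95% interval -0.82 to 1.05, limma adjusted p = 0.957) turned to -0.23 without KO4, to -0.077 without WT3 and to -0.47 without KO4 and KO5. Gene counts do not separate the receptor from the soluble form. The 10 mast cell markers, of which 4 were tested, summed to 566 to 722 for WT and to 644 to 687 for Gsdme_KO, which lies inside the WT range. Most of that sum was Kit, also a gene of other gut cells, while Mcpt1 had 26.3 to 102 and Mcpt2 3.32 to 46.5. Hdc had 171 in KO4 and 19.3 to 58.6 elsewhere, and the 6 markers below the testing level, Ms4a2 and Fcer1a among them, had 0 to 17.9.

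Hmgb1 was the steadiest member. Hmgb1 (ENSMUSG00000066551, chromosome 5, 149046702 to 149184489, minus strand) had 2706, 2401, 2967 and 2975 normalized counts in WT3, WT5, WT7 and WT8, and 2681, 2796, 2878 and 3107 in KO4, KO5, KO7 and KO8. The means of 2762 ± 271 and 2865 ± 180 (SD, n = 4) corresponded to 0.06 on the log2 scale (SE 0.09, limma adjusted p = 0.919), which was -0.0094 without WT5. Its 95% interval, -0.15 to 0.27, is the narrowest of the 10. The annotation names 13 Hmgb1 pseudogenes or related sequences, so reads may be shared with copies. RNA level says nothing of the protein's release from the nucleus.

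**Figure D2:**
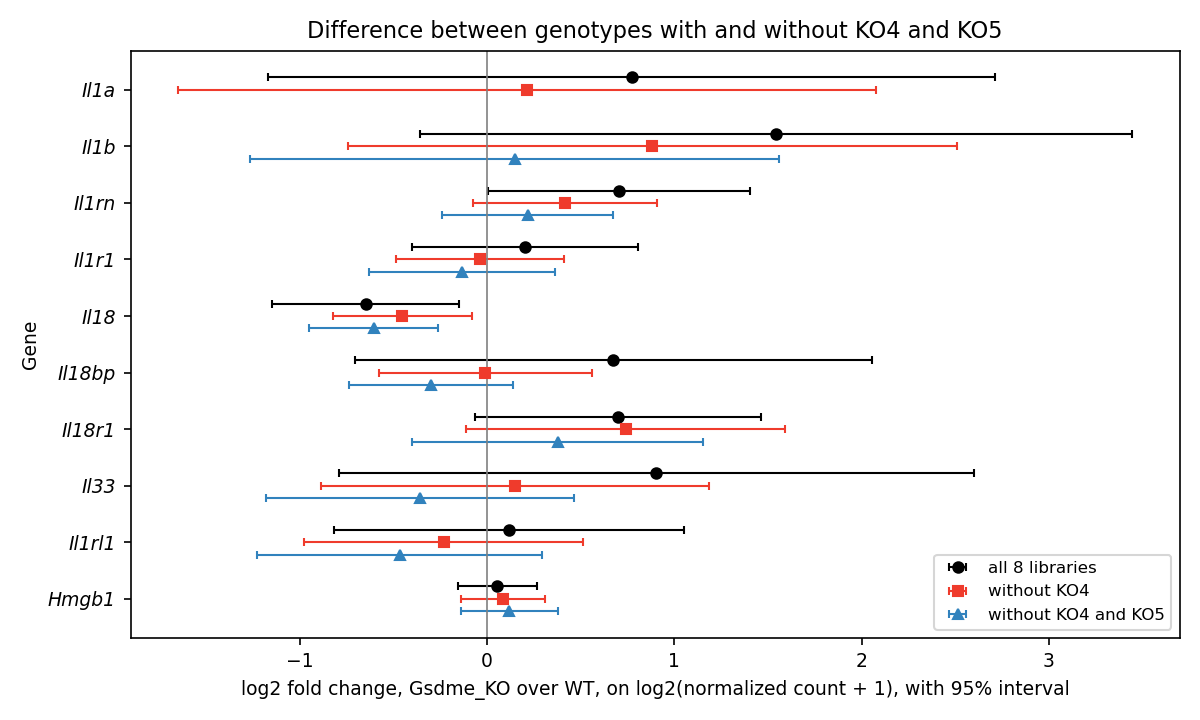
Log2 fold change of Gsdme_KO over WT for the 10 genes with its 95% interval from limma, with all 8 libraries (black circles), without KO4 (red squares) and without KO4 and KO5 (blue triangles; Il1a was then too low for testing). Il18 stays below 0 in all 3 fits, while Il33, Il18bp, Il1r1 and Il1rl1 move from above 0 to below 0 once KO4 and KO5 are left out.

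Ligands were then compared with their antagonist, binding protein or receptor inside each library, from normalized counts plus 1. The log2 ratio of Il18 to Il18bp was 2.06, 1.93, 1.97 and 1.66 in WT3, WT5, WT7 and WT8, and -2.06, 1.19, 1.25 and 1.94 in KO4, KO5, KO7 and KO8. On the linear scale of normalized counts, not corrected for length, that is 3.17 to 4.16 in WT, 3.84 in KO8, 2.38 in KO7, 2.28 in KO5 and 0.24 in KO4. The 3 libraries KO4, KO5 and KO7 lay below every WT library and KO8 inside their range. The difference in mean log2 ratio was -1.32 (exact permutation p = 0.0857, two-sided, adjusted p = 0.343 over the 4 ratios), and it was -0.44 without KO4.

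The other ratios overlapped more. Il33 to Il1rl1 had log2 ratios of -0.97 to -0.15 in WT, and of 1.48 for KO4, 0.39 for KO5, 0.16 for KO8 and -1.004 for KO7, so that 3 Gsdme_KO libraries lay above and 1 below every WT library (difference 0.79, exact permutation p = 0.2, adjusted p = 0.381). Il1b to Il1rn was highest in KO4 (-2.62) and KO5 (-3.03), while KO7 (-4.91) and KO8 (-4.35) lay within the WT range of -5.82 to -3.84 (difference 0.84, exact permutation p = 0.286, adjusted p = 0.381). Il1a to Il1rn differed by 0.07 (exact permutation p = 0.971, adjusted p = 0.971), with a sign that depended on the pseudocount and on single libraries.

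**Figure D3:**
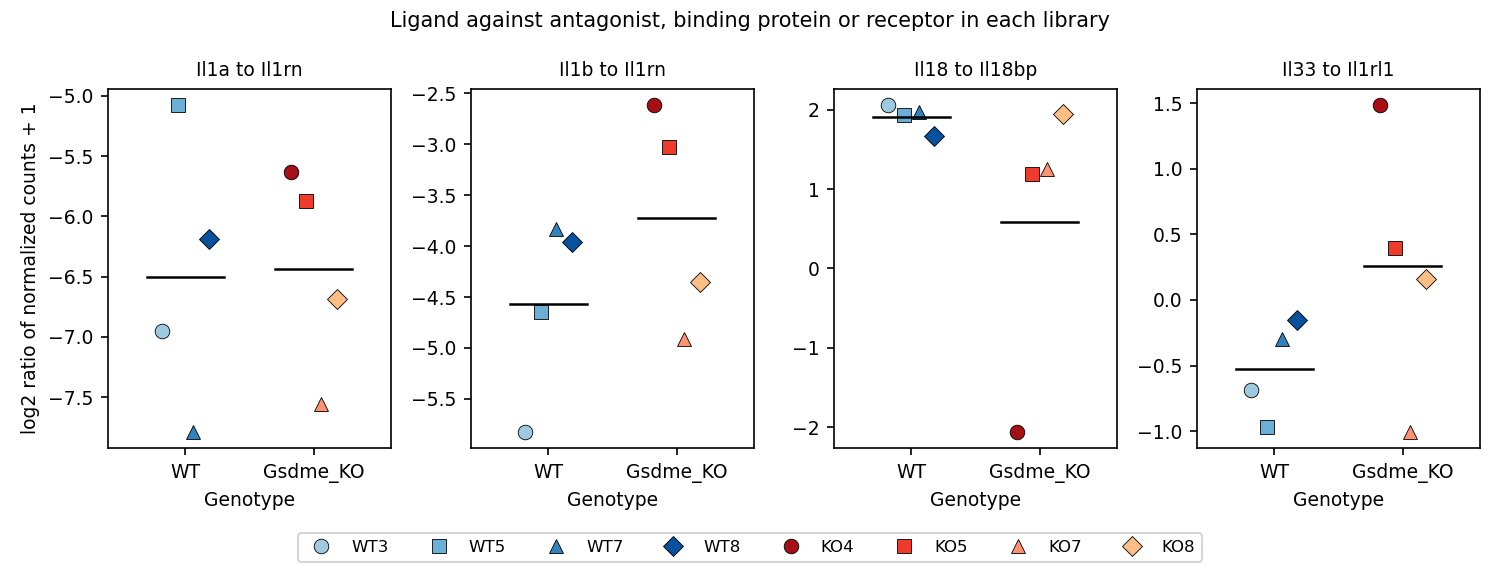
Log2 ratio of 4 pairs of genes in each library, from normalized counts plus 1, with blue points for WT, red to orange points for Gsdme_KO and a black bar at each mean (n = 4). The WT libraries lie close together for Il18 to Il18bp, from 1.66 to 2.06, and KO4 lies far below them at -2.06.

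KO4 was the highest of the 8 libraries for 7 of the 10 genes (Il1a, Il1b, Il1rn, Il1r1, Il18bp, Il33 and Il1rl1) and the lowest for Il18. Over all tested genes KO4 was highest for 25.6%, and for 25.1% of the genes that reach the testing level without KO4, as all 10 members do. For 5 of those 7 genes, all but Il1r1 and Il1rl1, KO5 was second. The genes whose course over the 8 libraries was nearest to the 3 most variable members were found among 14395 protein-coding genes by the root mean square difference of centred log2 values. For Il33 they were Ly6a (0.20), Lcn2 (0.20), Inf2 (0.22), Slfn1 (0.24) and Ifit2 (0.26), against a median of 1.202 over all genes compared. For Il1b they were Ifi206 (0.22), 9930111J21Rik2 (0.32), Arhgap40 (0.36), Krt36 (0.37) and the receptor gene Cd40 (0.38), with a median of 1.45 over all genes. For Il1a they were Dhh, Ly6d, Tnip3, Gpr171 and Wfdc2, at 0.43 to 0.49. Since these genes were chosen by their likeness over the libraries, that they are high where the members are high was set by the choice.

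The promoter sequences are shown for the 3 most variable members, all ligand genes, and for Il18, the 1 with a lower mean in Gsdme_KO. A feature of the former 3 was noticed only after the matches had been seen. Il33 has it only at the start inside the gene. Each line gives the 250 bases before a RefSeq transcription start on GRCm38.p6, 5′ to 3′ on the gene's strand. Capitals mark matches to any of the 5 motifs searched on both strands: TATAAA (the core promoter box bound by TBP), TGANTCA (AP-1), TTCNNNGAA (STAT), GGGNNTTTC (NF-kappaB) and GAAANNGAA (interferon response), in which N is any base.
Il1b, chr2:129371140-129371389, minus strand: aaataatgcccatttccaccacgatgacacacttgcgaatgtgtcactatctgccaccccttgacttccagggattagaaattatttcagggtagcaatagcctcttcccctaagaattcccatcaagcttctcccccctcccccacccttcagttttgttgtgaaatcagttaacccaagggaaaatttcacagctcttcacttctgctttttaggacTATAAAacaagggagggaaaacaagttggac
Il1a, chr2:129309973-129310222, minus strand: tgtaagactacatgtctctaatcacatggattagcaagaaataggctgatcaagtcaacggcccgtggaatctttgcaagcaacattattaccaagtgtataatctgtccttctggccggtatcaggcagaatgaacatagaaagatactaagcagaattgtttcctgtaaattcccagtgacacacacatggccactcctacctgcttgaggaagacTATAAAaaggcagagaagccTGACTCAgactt
Il33, start inside the gene, chr19:29945540-29945789, plus strand: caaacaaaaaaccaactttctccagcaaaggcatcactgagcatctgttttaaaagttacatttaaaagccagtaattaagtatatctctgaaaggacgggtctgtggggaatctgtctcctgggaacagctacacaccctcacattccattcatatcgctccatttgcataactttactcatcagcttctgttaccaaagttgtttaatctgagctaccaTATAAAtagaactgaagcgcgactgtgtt
Il33, first start, chr19:29924863-29925112, plus strand: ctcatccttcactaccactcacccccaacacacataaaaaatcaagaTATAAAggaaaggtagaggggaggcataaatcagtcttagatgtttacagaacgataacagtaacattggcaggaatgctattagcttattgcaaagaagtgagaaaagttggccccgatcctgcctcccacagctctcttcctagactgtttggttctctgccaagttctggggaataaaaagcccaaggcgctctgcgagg
Il18, chr9:50554450-50554699, plus strand: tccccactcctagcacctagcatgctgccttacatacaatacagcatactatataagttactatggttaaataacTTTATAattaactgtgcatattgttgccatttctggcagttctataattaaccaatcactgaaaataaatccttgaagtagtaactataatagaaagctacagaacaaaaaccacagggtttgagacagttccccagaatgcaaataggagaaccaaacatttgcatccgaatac

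The Il1b window holds TATAAA beginning 31 bases before the start, the Il1a window 32 bases before it, and that of the Il33 start inside the gene 29 bases before it. A forward TATAAA that begins 25 to 35 bases before the start was found in these 3 of 18 windows of the 10 genes and in 1.75% of 32851 windows of all genes. That position range was chosen after the matches had been seen, so these shares are no test. The first Il33 start has the motif 203 bases away, and Il18 has it on the other strand 175 bases away. TATAAA anywhere in the window on either strand was present in 12.4% of all windows and in 5 of the 18. Il1a also has TGACTCA, a match to the AP-1 motif, 12 bases before its start, and AP-1 matches occur in 2 of the 18 windows and 6.75% of all. NF-kappaB matches occur in 1 of the 18 (Il1rn) and 3.72% of all, STAT matches in 1 of the 18 (Il18r1) and 7.02% of all, and interferon response matches in 0 of the 18 and 7.13% of all. These are matches of letters in a short window and do not show which start was used in these samples.

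The other IL-1 family genes were mostly low. Of 12 listed, 7 were tested and 0 were called, with 6 positive log2 fold changes and a median of 0.43 (without KO4 5 of 6 and 0.15, without KO4 and KO5 4 of 5 and 0.065). Among the positive ones, Il36g fell below the testing level without KO4, where it had 42.4 normalized counts, with 1.13 to 20.3 elsewhere. Il36b fell below that level without KO5, where it had 27.0, with 2.77 to 16.6 elsewhere. The positive sign of these genes is therefore no independent result. Il36rn and Il1f10, genes of an antagonist and an inhibitory cytokine of the IL-36 group, had 0 reads in all 8 libraries. The accessory chain Il1rap averaged 103 ± 24.0 normalized counts for WT and 116 ± 13.9 for Gsdme_KO, the IL-36 receptor gene Il1rl2 99.1 ± 35.4 and 113 ± 18.4, and Sigirr, which encodes an inhibitory receptor, 624 ± 83.1 and 557 ± 81.1 (SD, n = 4; limma adjusted p from 0.849 to 0.864). The decoy receptor gene Il1r2 reached 76.5 in KO4 and 40.6 in KO5, with 19.5 to 26.2 elsewhere.

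Signalling genes downstream of the receptors were close in both genotypes. All 21 were tested, 0 were called, 12 had a positive log2 fold change, and the median was 0.06 (9 positive and -0.030 without KO4, 4 positive and -0.044 without KO4 and KO5). Tollip, an adaptor that restrains IL-1 signalling, averaged 2719 ± 272 normalized counts for WT and 2385 ± 391 for Gsdme_KO, the adaptor gene Tab2 2496 ± 101 and 2486 ± 489, and the kinase gene Map2k3 2207 ± 208 and 2341 ± 401 (SD, n = 4). In 1 of the 21 genes the genotypes did not overlap, where the share over all tested genes was 2.5%. That gene was Mapk14, which encodes the kinase p38 alpha, at 1443 ± 50.3 and 1339 ± 28.0 (log2 fold change -0.11, SE 0.06, limma adjusted p = 0.849).

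Of 20 genes of cytokine processing and release, 18 were tested and 0 were called, with 11 positive and a median of 0.07 (7 positive and -0.035 without KO4, 7 positive and -0.034 without KO4 and KO5). Gsdme itself, which is on this list, had a limma adjusted p of 0.786. Gsdmd, which encodes the pore protein of inflammasome signalling, averaged 4995 ± 878 normalized counts for WT and 5357 ± 1060 for Gsdme_KO, and the calpain gene Capn1, whose product cleaves the IL-1 alpha precursor, 5787 ± 533 and 4821 ± 1244 (SD, n = 4). Without KO4 and KO5, 1 gene of the list was called, Gsdme.

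The HMGB family and HMGB1 receptor list had 9 genes besides Hmgb1, of which all were tested, 0 were called and 5 were positive, with a median of 0.20 (6 positive and 0.0038 without KO4, 5 positive and 0.063 without KO4 and KO5). Hmgb2 averaged 2334 ± 562 normalized counts for WT and 2216 ± 272 for Gsdme_KO, and Hmgb3 495 ± 135 and 439 ± 94.96 (SD, n = 4). Cd24a, which encodes a surface protein that binds HMGB1, had 3865 ± 752 and 4710 ± 1026. Ager, which encodes the receptor RAGE, was low, at 15.5 to 28.4 for WT and 30.5 to 48.9 for Gsdme_KO. It was the 1 gene of these 9 without overlap, where the share over all tested genes was 2.5%. The log2 fold change of Ager was 0.90 (SE 0.28, limma adjusted p = 0.849), and 0.79 without KO4.

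Genes known to be induced by IL-1 had high levels in KO4. Of 20 listed, 18 were tested and 0 were called, and 16 had a positive log2 fold change with a median of 0.70. The 3 genes Il6, Cxcl1 and Cxcl2 reached the testing level only through KO4. KO4 was the highest library for 15 of the 15 others, where the share over all genes that reach that level without KO4 was 25.1%. With KO4 left out these 15 had 12 positive values and a median of 0.10, and without KO4 and KO5 6 of 15 were positive with a median of -0.10. Cxcl5, a neutrophil chemokine gene, had 931, 244, 56.0 and 62.1 normalized counts across KO4, KO5, KO7 and KO8, all above the WT range of 15.9 to 52.0. It was the 1 gene of the 18 tested without overlap, where the share over all tested genes was 2.5%. The log2 fold change of Cxcl5 was 2.12 (SE 0.86, limma adjusted p = 0.849), and 1.29 without KO4. Nfkbiz, which encodes an inducible regulator of NF-kappaB targets, had 701 ± 179 and 1113 ± 548, and Sod2, which encodes a mitochondrial antioxidant enzyme, 1516 ± 179 and 1642 ± 195 (SD, n = 4). Saa1, a serum amyloid gene, reached 5648 in KO4, while KO5, KO7 and KO8 held 892, 329 and 237 and WT 708 to 1743. Its log2 fold change was -0.48, although its mean count was higher in Gsdme_KO.

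Of 15 genes of the lymphoid cells that answer IL-18 and IL-33, 9 were tested and 0 were called. All 9 were positive, with a median of 0.34, where 50.6% of all tested genes were positive. Klrg1 and Il12rb2, with WT means of 8.79 and 7.59 normalized counts, fell below the testing level without KO4 and KO5. Passing the filter thus depended on Gsdme_KO libraries where they were high, so their positive sign is no independent result. Without KO4, 8 of 9 were positive with a median of 0.41, and without KO4 and KO5 5 of 7 with a median of 0.03. The granzyme gene Gzmb held 701 normalized counts in KO4, 205 to 213 for the other Gsdme_KO libraries and 83.4 to 179 for WT. It was the 1 gene of the 9 tested with no overlap, where the share over all tested genes was 2.5%. The log2 fold change of Gzmb was 1.17 (SE 0.44, limma adjusted p = 0.849), and 0.73 without KO4. Areg, which encodes the tissue repair growth factor amphiregulin, had 774 ± 334 and 1032 ± 783, and Csf2rb, a shared cytokine receptor chain, 192 ± 80.9 and 346 ± 209 (SD, n = 4). The type 2 cytokine genes Il4, Il5 and Il13 had 0 to 17.3 normalized counts and were not tested.

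**Figure D4:**
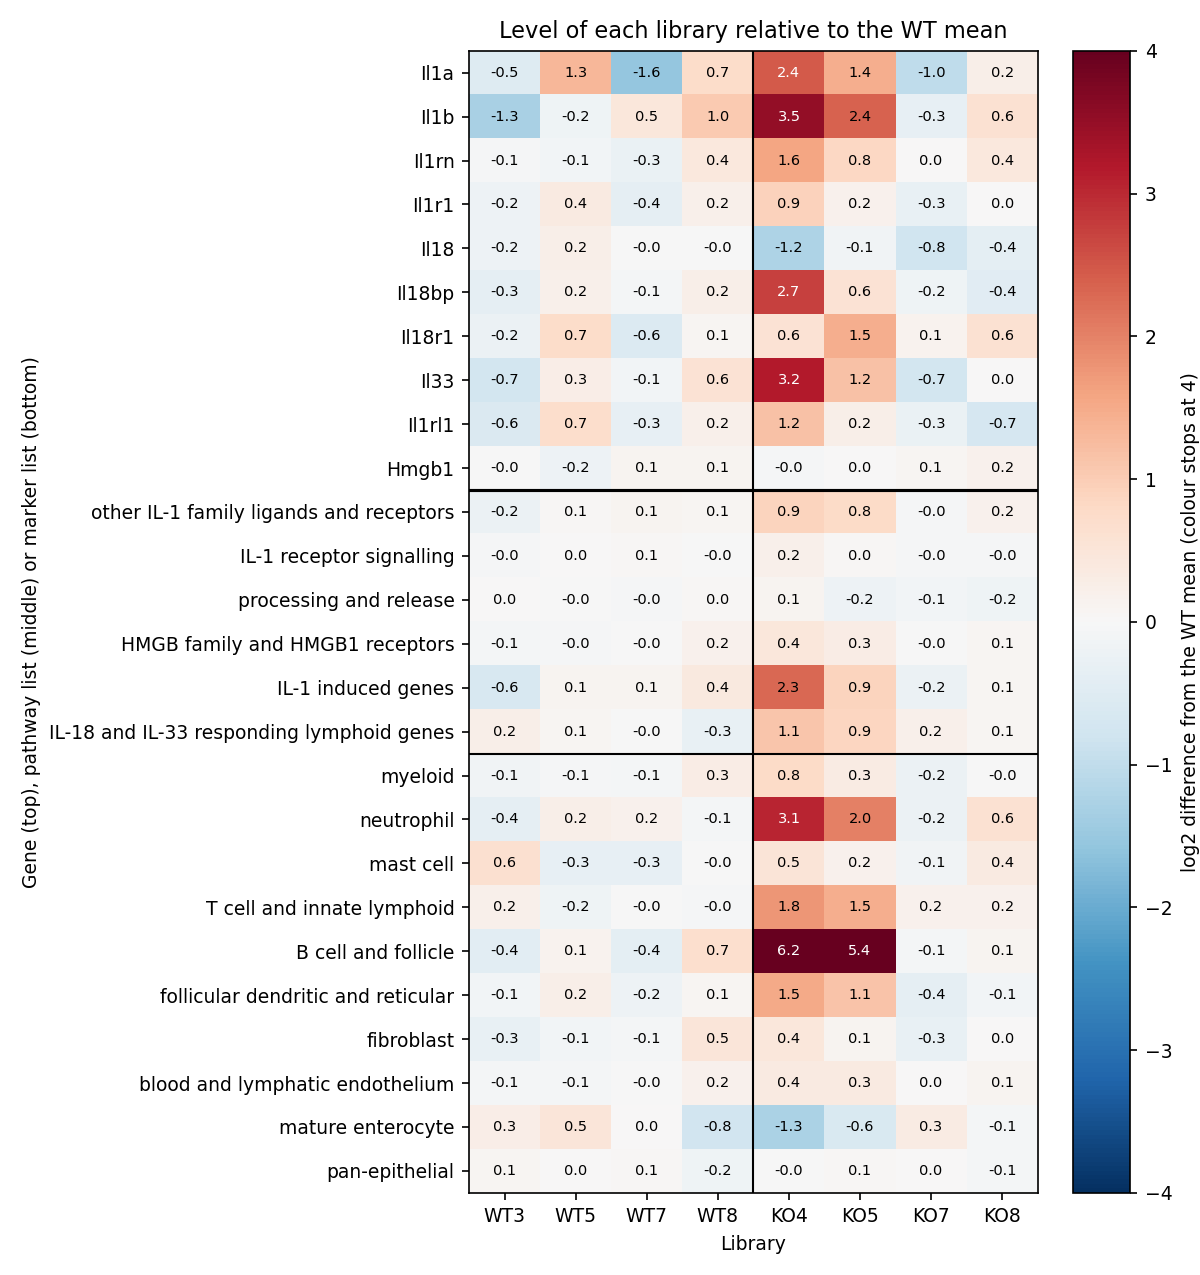
Log2 difference of each library from the WT mean for the 10 genes (top, log2 of normalized count plus 1), and for the mean log2 level of the pathway lists (middle) and cell type marker lists (bottom). KO4 and KO5 are red for most members and for the neutrophil, T cell and B cell lists. Il18 is blue in KO4, KO7 and KO8.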

How the data were processed

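Bulk poly(A) RNA-seq of ileum was deposited by the authors as 1 table of normalized signal, that is, read counts per gene divided by 1 size factor per library. Alignment and counting used, per the submitters' processing notes, HISAT2, featureCounts (Subread), SAMtools and DESeq2 on GRCm38. No version, annotation or strand setting is given in the sources used here. Whole reads were recovered from the steps of the values (100% whole within 0.01 reads in each library). Every pair of libraries differed by more than sampling noise (lowest chi-square per degree of freedom 11.5). The labels number the mice singly but do not describe the animals further, so p-values measure the spread between these samples.

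The test was limma-trend (limma 3.58.1, R 4.3.3) on log2(normalized count + 1) for genes with a mean of at least 10, with Benjamini-Hochberg adjustment over all 16352 and a threshold of 0.05. Fold changes on this scale understate those of low genes. edgeR 4.0.16 and DESeq2 1.42.0 were run on the recovered reads. Ratios and Gsdme were compared by exact permutation of mean log2 values over 70 assignments. Other alternatives were pseudocounts of 0.5 and 5, no filter, a mean of at least 50, TMM, quantile normalization, and each library left out; leaving out KO4 and KO5 together was added with the data known. The limma fit was first run on simulated counts with known changes. That simulation held no outlying library, so it does not show how the fit handles one such as KO4.

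Genes named were all 10 members, Gsdme, for each pathway list the called genes or else the 3 of highest mean and those whose genotypes did not overlap, and the 5 nearest profiles of the 3 members with the largest SD. Ifng, Il18rap, Il1r2, Il36rn, Il1f10, Il36b, Il36g, Il4, Il5, Il13, Klrg1, Il12rb2, Ms4a2, Fcer1a, Kit, Mcpt1, Mcpt2, Hdc, Mmp9, Fdcsp, Ccl21a, Clu, Bst1, Ltbr, Il6, Cxcl1 and Cxcl2 were chosen after their values were seen. A gene that this rule names is not reported here. Members and lists were chosen with earlier results of these data known. Positions and exon lengths are from GENCODE M21 (GRCm38), and promoter windows from RefSeq (GRCm38.p6), where all 10 genes matched. The letters of the NF-kappaB and interferon response motifs were set after a search with longer forms had been seen.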

Additional observations from a re-analysis of the deposited data

Results flagged for a closer look

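Il18bp in KO4, at 1945 normalized counts, lay far from the other 3 Gsdme_KO libraries, which held 216 to 437. The gap was 0.87 of the range of the group, above the 95% critical value of Dixon's test for 4 values. Among 30 groups of 4 values examined (10 genes, Gsdme and 4 ratios in each genotype) it was the 1 that stood out in this way. Chance alone gives about 1 in 20, or 1.5 of the 30, so 1 is no more than chance gives.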

How the results depend on the processing

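The number of members called was 0 in all 17 alternatives. The number of all genes called was 1, with 9 by DESeq2 and 0 to 1 when 1 library was left out. The median log2 fold change of the members, 0.69 with all libraries, ran from 0.12 (without KO4) to 0.91 when 1 library was left out, and was -0.13 without KO4 and KO5. Leaving out 1 library gave -0.037 to 0.37 for Il1r1, -0.0079 to 1.05 for Il18bp, -0.23 to 0.38 for Il1rl1 and -0.0094 to 0.094 for Hmgb1, and -0.36 to 0.54 for the log2 ratio of Il1a to Il1rn, which was -0.12 with a pseudocount of 5. Without KO4 and KO5 the log2 fold changes turned to -0.13 for Il1r1, -0.30 for Il18bp, -0.36 for Il33 and -0.47 for Il1rl1, the ratio differences to -0.62 for Il1a to Il1rn and -0.069 for Il1b to Il1rn, and the Gsdme difference was -2.37 (exact permutation p = 0.0667, the smallest that 4 against 2 allows). The cause was not tested. Il18, Il1b, Il1rn, Il18r1 and, where tested, Il1a kept their direction in all 17. A mean of at least 50, and leaving out KO4 and KO5, left Il1a untested. No paired analysis was possible because the columns carry numbers that cannot be tied to the replicate numbers of the labels; the replicate block was therefore not run. Depth limits Il1a most, at 2 to 55 reads per library.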
